A study of Mus musculus and Rattus norvegicus with 53 samples.

Results

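The 150 genes described here were chosen by their measured values: in Schwann cells sorted from the nerve stump distal to a cut, their level on days 8 and 10 after transection stood furthest above every earlier stage. Single-nerve libraries were scaled to counts per 1000000 gene counts (CPM), and the group median was taken for intact nerve and for distal nerve on days 1, 2, 4, 8 and 10. The score of a gene was the log2 ratio of the lower of its day 8 and day 10 medians to the highest of the 4 earlier medians, with 5 CPM added to both. The 150 highest scores were kept among 13174 genes with counts in at least 5 of the 6 libraries of days 8 and 10, out of 24016 genes in the files. Because these libraries set the membership, the rise between them is given as a description, with no test.

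RNA was sequenced from tdTomato+ Schwann cells of tdTom-SC mice, in which P0A-Cre, driven by the promoter of myelin protein zero, switches on a Rosa26 tdTomato reporter. All groups carried the same alleles, came from mice of 6 to 8 weeks, and differed in the nerve region and the day after full sciatic transection: contralateral intact nerve (iSCs), the stump distal to the cut (dSCs) and the bridge of new tissue between the stumps (bSCs). A pooled series held 4 libraries each of iSCs, dSCs and bSCs on day 6, with nerves from 3 mice per library. A single-nerve series held 5 libraries of iSCs, 3 of dSCs on day 1, on day 2 and on each even day up to day 10, and 3 of bSCs on each even day from day 4 to day 10. The reporter marks cells in which the promoter was active at any earlier stage, and not every Schwann cell recombines. The RNA of few sorted cells was amplified by the Smart-seq2 protocol, which does not keep the strand.

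When a peripheral nerve is cut, axons beyond the cut degenerate, and Schwann cells there shut down myelin genes, clear myelin together with macrophages, divide and take on a repair state that supports regrowing axons. In the bridge, by contrast, Schwann cells leave the stumps and migrate through new tissue. In Wnt signalling, secreted antagonists such as Wif1 and Frzb bind Wnt proteins outside the cell, while receptors such as Ror2 receive the signal. Extracellular proteases are held in check by plasma-type inhibitors, among them kininogens, fetuins, alpha-2-macroglobulin and serpins.

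Libraries held between 9240883 and 22426128 gene counts in the single-nerve series and between 11435463 and 22617054 in the pooled series. A count of 3 in a single library was worth 0.133 to 0.325 CPM. Lower bounds of folds below use a floor of 3 counts over all libraries of the group at 0 (0.0438 CPM in pooled bSCs, 0.0532 CPM in pooled iSCs and 0.0775 CPM in day 6 single-nerve bSCs), and for a group with 1 to 3 counts in all the ratio of CPM is given with its exact 95% counting interval. Intervals and floors cover counting error only. A score of the genes outside the set that differed between pooled bSCs and dSCs, the bridge minus distal index (mean log2 level of 163 bridge genes minus that of 358 distal genes), was between 4.30 and 5.09 in pooled bSCs and between -0.17 and 0.81 in pooled dSCs. In the single-nerve series 3 libraries stood against their labels: distal day 10 replicate 0 had an index of 3.14 where the other distal libraries lay between 0.61 and 2.47, bridge day 4 replicate 1 had 1.14 and bridge day 8 replicate 2 had 0.49 where the other bridge libraries lay between 2.55 and 4.12. Distal day 4 replicate 1 and bridge day 4 replicate 1, from the same animal, correlated at 0.997 over genes, against at most 0.959 in the rest of the 595 pairs of single-nerve libraries. These libraries are called by their labels below. Counts over the single-nerve medians are given with and without them, and for single genes the value in each doubted library is shown beside the others.

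**Figure D1:**
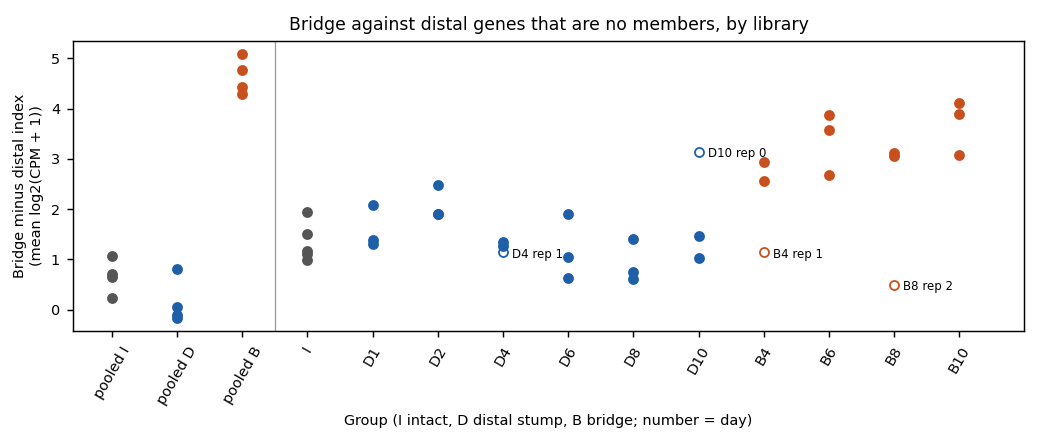
Bridge minus distal index (log2 scale, vertical axis) of each library by group, from genes outside the set of 150. Distal day 10 replicate 0, at 3.14, lies among the bridge libraries, and bridge day 4 replicate 1 and bridge day 8 replicate 2, at 1.14 and 0.49, lie among the distal libraries.

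Several cell types' markers also moved between stages. The summed level of 14 macrophage markers was 313 to 1475 CPM in single-nerve iSCs and 11851 to 16247 CPM in dSCs of day 4. On days 8 and 10 it was 4027 to 8702 CPM and 4320 to 7925 CPM. In the pooled libraries the same sum was 266 to 6369 CPM in iSCs, 10368 to 16258 CPM in dSCs and 2572 to 8640 CPM in bSCs. A sum of 7 fibroblast markers, which include the member Lum, was 14920 to 31907 CPM in single-nerve iSCs, 19349 to 25204 CPM on day 4, 31871 to 46291 CPM on day 8 and 35031 to 38960 CPM on day 10. In the pooled libraries the fibroblast sum was 9070 to 49570 CPM in iSCs, 29088 to 38958 CPM in dSCs and 13374 to 28143 CPM in bSCs. The sum of 8 Schwann cell markers, which include the member Sox10, was 4841 to 11316 CPM in pooled iSCs, 1185 to 2988 CPM in pooled dSCs and 1134 to 2488 CPM in pooled bSCs, so the defining markers of the sorted cells were present in every group. In the single nerves the Schwann cell sum was 1330 to 3881 CPM in iSCs, 1039 to 1475 CPM on day 4, 2492 to 3044 CPM on day 8 and 1596 to 2348 CPM on day 10, so it too was higher late than on day 4. A sum of endothelial markers was 955 to 7370 CPM in single-nerve iSCs, 425 to 723 CPM on day 4, 480 to 1912 CPM on day 8 and 981 to 3282 CPM on day 10. For 4 perineurial markers the sums at these stages were 664 to 2072, 92.6 to 218, 432 to 665 and 397 to 481 CPM. For 6 mural cell markers they were 489 to 4723, 582 to 891, 603 to 2771 and 1158 to 2273 CPM. These sums too were higher on day 10 than on day 4. No macrophage, fibroblast or Schwann cell marker was at 0 in every library of a group, the erythroid sum was 0 throughout, and the part of these cells in the values below was not tested. In sorted bulk RNA, fewer cells of a type and less RNA per cell cannot be told apart.

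Among the 150 genes, the score ran from 2.6 for Gria1 (6.07-fold) down to 0.58 for Fgd3 (1.49-fold), with a median of 0.80 (1.74-fold). At the lower edge, Stab2, Kcnv1, Tlr12, Vstm4 and Fgd3 were inside with scores from 0.58 to 0.59, and 2210408I21Rik, Ptk7, Stc2, Ptov1 and Nab1 were outside with scores from 0.56 to 0.57, so the set has no sharp border. The 20 highest scores belonged to Gria1, Wif1, Clca2, Kng1, Frzb, Fetub, Apod, Fam84a, Kng2, A2m, Cfi, Slitrk6, Serpine2, 9430069I07Rik, Mest, Cpxm1, Frem1, Trf, Adamts17 and Matn2. The lower late median was under 10 CPM in 33 members and over 1000 CPM in 9, which were Apod, Serpine2, Trf, Matn2, Igf1, Lum, Islr, Mmp2 and Gpc3. The highest earlier stage was day 4 in 67 members, day 2 in 44, intact nerve in 28 and day 1 in 11. The shares of all genes were 30.1%, 28.1%, 23.6% and 18.1%. Without distal day 4 replicate 1 and with the members kept as chosen, the counts were 95, 30, 17 and 8, against 35.1%, 25.7%, 22% and 17.2%. The earlier medians entered the choice, so nothing is read from the difference from all genes.

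On day 6, a stage the choice did not use, the median was above all 4 earlier medians in 132 of the 150, against 23.3% of the 13174 genes. The day 6 median had reached the lower late median in 58, against 59.1% of all genes. In 36 members the day 6 median was above both late medians, against 34.6% of all genes. Without distal day 4 replicate 1 and distal day 10 replicate 0 these counts were 120, 57 and 31, against 21.7%, 58.1% and 34.4% of all genes. The medians on the other side of these comparisons chose the members, so the counts are partly fixed by the choice, and nothing is read from their difference from all genes. Still at or below their earlier maximum on day 6 were 18 members, against 76.7% of all genes. They included Gpc3, a cell-surface proteoglycan, Ror2, Tenm2, an adhesion protein, and Ednra, an endothelin receptor. From day 8 to day 10 the median went up in 54 members, against 46.9% of all genes. Without replicate 0 of day 10 it went up in 64, against 47.7%. These medians also entered the choice.

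The share of all gene counts that the set took up was higher from day 4 on. It was 0.571% to 1.48% in iSCs, 0.372% to 1.35% in dSCs on day 1, 0.269% to 1.66% on day 2, 2.09%, 2.76% and 2.34% in replicates 0, 1 and 2 of day 4, 3.99% to 4.57% on day 6 and 5.94% to 6.71% on day 8. On day 10 it was 5.55% and 7.94% in replicates 1 and 3 and 2.52% in replicate 0. Much of this was 1 gene: in the pooled libraries the share was 6.01% to 8.65% in dSCs and 1.41% to 3.13% in iSCs, and without Apod it was 2.5% to 2.92% and 1.2% to 1.89%.

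Separation of single libraries was rarer than separation of medians. In 11 members the 6 libraries of days 8 and 10 lay above the 14 libraries of intact nerve and days 1, 2 and 4, a pattern met by 0.121% of all genes: Gria1, Serpine2, Epb4.1l3, Bdnf, Mfap2, Kcns1, St8sia2, Usp22, Olfml3, Col18a1 and Ctxn1. Without distal day 10 replicate 0 it was 41 members and 0.440% of all genes. That library was at or below the highest early median in 55 members, while the other late libraries were so in 2 to 10. These shares follow from the choice of the genes and are read as a description of how clean the pattern was.

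**Figure D2:**
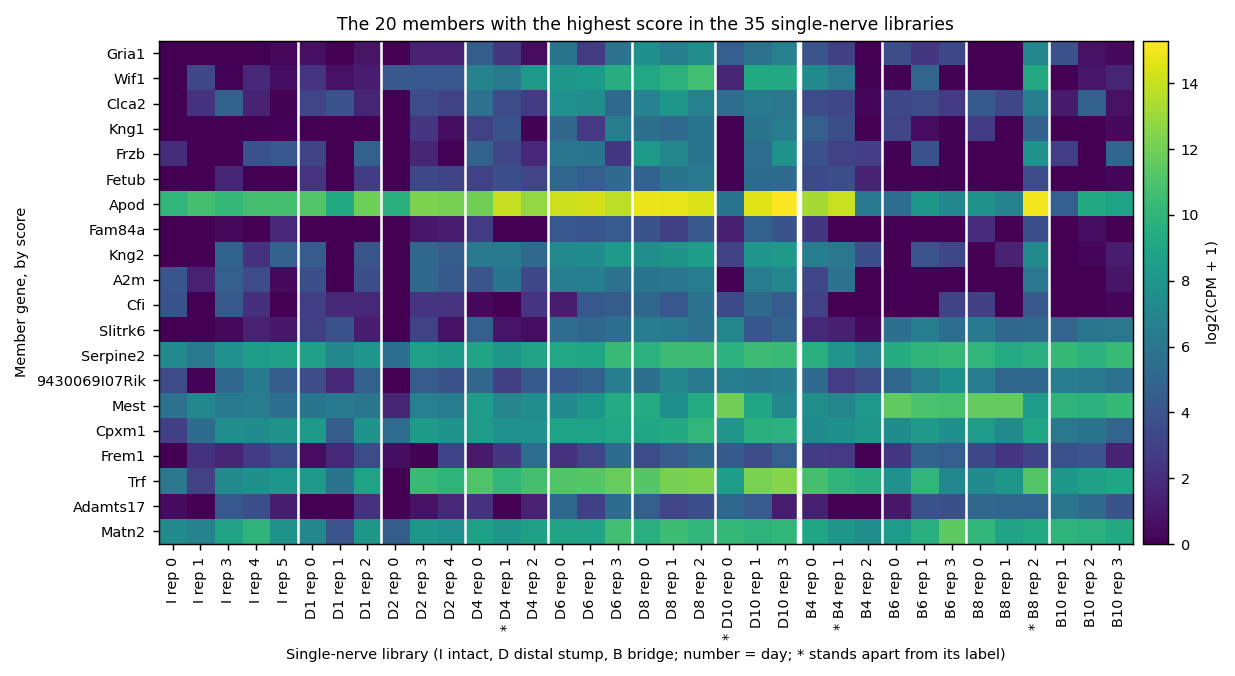
Level of the 20 highest-scoring members (rows) in the 35 single-nerve libraries (columns, by region and day), as log2(CPM + 1); asterisks mark distal day 4 replicate 1, distal day 10 replicate 0, bridge day 4 replicate 1 and bridge day 8 replicate 2. Levels build up along the distal columns, and the marked day 10 library lacks Kng1, Fetub and A2m, each at 0 CPM there, while the marked bridge day 8 library holds A2m at 68.1 CPM.

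Within the distal time course the leading members differed in when they appeared. Wif1, a secreted Wnt inhibitor, was at 0.00 to 8.77 CPM in the 5 iSC libraries, 0.603 to 3.94 CPM on day 1, 16.6 to 18.5 CPM on day 2, 74.8 to 299 CPM on day 4, 272 to 726 CPM on day 6 and 551 to 1640 CPM on day 8. On day 10 it was at 628 and 596 CPM in replicates 1 and 3 and at 2.08 CPM in replicate 0. Its libraries thus went up without overlap at each step from day 1 to day 4, and replicate 0 of day 10 lay among those of day 1.

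Gria1, a subunit of AMPA-type glutamate receptors, was nearly silent until day 4: it stayed at or below 1.77 CPM in iSCs and on days 1 and 2, and was at 21.6, 4.60 and 0.418 CPM on day 4. Its late libraries held 200, 96.4 and 177 CPM on day 8 and 22.9, 53.3 and 99.4 CPM on day 10, all above the highest early library. Slitrk6, a neuronal adhesion protein, was scattered early, at 26.1, 0.797 and 0.418 CPM on day 4, and was at 87.0, 75.6 and 51.6 CPM on day 8 and 127, 16.1 and 28 CPM on day 10. Here replicate 0 of day 10 was the highest library rather than the lowest, so that library was not low for the whole set.

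Apod, a lipid carrier of the lipocalin family, was the most highly counted member. It was at 1067 to 1796 CPM in the 5 iSC libraries, 648 to 3819 CPM on day 1, 819 to 4909 CPM on day 2, 3959, 15769 and 7353 CPM on day 4, and 14216 to 20547 CPM on day 6. On day 8 it reached 29017, 28406 and 21696 CPM, and on day 10 it was at 23702 and 40190 CPM in replicates 1 and 3 against 59.5 CPM in replicate 0. Trf, the iron carrier transferrin, was at 2429, 4577 and 5157 CPM on day 8 and 375, 4777 and 5778 CPM on day 10, the lowest again in replicate 0. Serpine2, a serpin that inhibits thrombin and related proteases, did not show this drop and was at 867 to 1440 CPM in the 6 late libraries, above the highest early library at 487 CPM.

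**Figure D3:**
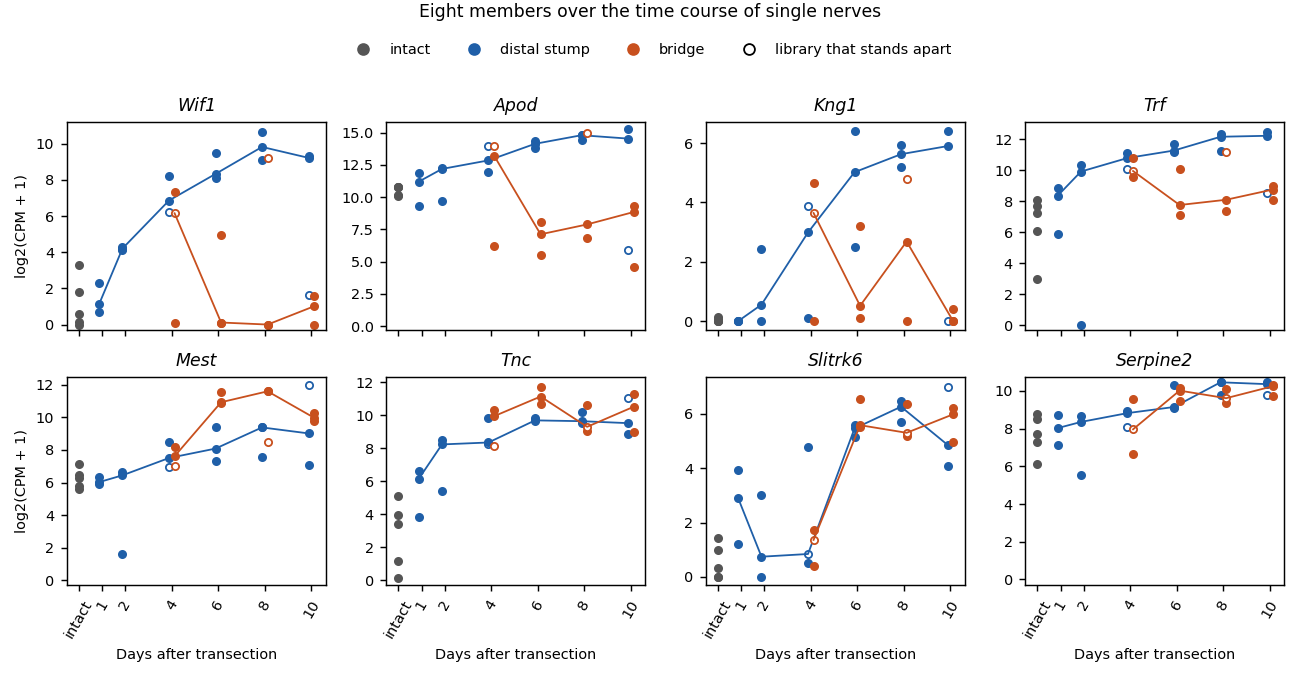
Level of 8 members, as log2(CPM + 1), against days after transection (intact nerve at the left), in single-nerve libraries of the distal stump and the bridge; lines join group medians, and open points are the libraries that stood apart. Wif1, Apod, Kng1 and Trf climb in the distal stump and not in the bridge, Slitrk6 climbs in both, and Mest and Tnc lie higher in bridge than in distal libraries on day 6.

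Some members lie close to each other on the genome. Fetub, Kng2 and Kng1 lie in that order on chromosome 16 (mm9 build: Fetub chr16:22918455-22939839 on the plus strand, Kng2 chr16:22985927-23029174 on the minus strand and Kng1 chr16:23057938-23082141 on the plus strand), 46088 and 28764 bases apart. Genes outside the set that may lie between them were not looked for. They encode fetuin B and kininogens, plasma proteins with cystatin-like domains. Kng1 and Kng2 are close copies of each other, so reads may have been split between them, and their separate levels are uncertain. Mest (chr6:30673547-30698457, plus strand) overlaps Copg2 (chr6:30697554-30846794, minus strand) by 903 bases, and Klf14 lies 59227 bases beyond Copg2. The protocol kept no strand, so counts in the overlap cannot be assigned to either gene. Apod lies further along chromosome 16, at chr16:31296278-31314894 on the minus strand. For Fetub, Kng2 and Apod, shown as the top-20 genes on this chromosome that matched a RefSeq promoter, the 250 bases before the RefSeq start are given 5′ to 3′ (build GRCm38.p6), with ACAAAG and ACAATG, core sequences of Sox proteins, in capitals on either strand.
Fetub, chr16:22918132-22918381, plus strand: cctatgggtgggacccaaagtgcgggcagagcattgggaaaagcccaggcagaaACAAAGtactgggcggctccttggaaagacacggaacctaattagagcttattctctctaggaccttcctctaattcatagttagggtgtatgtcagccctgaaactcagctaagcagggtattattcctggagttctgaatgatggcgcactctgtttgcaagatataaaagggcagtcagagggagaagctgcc
Kng2, chr16:23029102-23029351, minus strand: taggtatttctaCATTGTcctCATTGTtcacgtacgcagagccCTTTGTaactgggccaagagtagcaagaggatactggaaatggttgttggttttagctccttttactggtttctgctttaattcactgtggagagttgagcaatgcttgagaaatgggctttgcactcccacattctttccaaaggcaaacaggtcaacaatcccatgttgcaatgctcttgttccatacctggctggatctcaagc
Apod, chr16:31314809-31315058, minus strand: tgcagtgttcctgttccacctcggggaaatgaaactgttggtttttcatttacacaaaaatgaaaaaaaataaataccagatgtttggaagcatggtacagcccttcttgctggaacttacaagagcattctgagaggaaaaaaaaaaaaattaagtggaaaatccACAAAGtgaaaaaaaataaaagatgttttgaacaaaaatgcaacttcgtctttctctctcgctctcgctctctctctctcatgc
Windows of 300 bases were found for 102 of the 150 members, and ACAAAG occurred in 19.9% of their 136 windows against 18.7% of all 32851, ACAATG in 14 of the 136 against 12.6%. TGANTCA, the AP-1 sequence, occurred in 5.15% against 7.81%, GGAATG, the TEAD core, in 13.2% against 14.7% and TATAAA, the TATA box, in 11% against 13.6%. Both strands were searched, and a window with several of these strings was counted under each. Shares in the members' windows were thus near or below those of all windows, and a match is a description of sequence only.

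The pooled libraries of day 6 took no part in the choice, and 144 of the 150 members had enough counts there to be tested (Kcns1, Kcnd3, Atp6v0a4, Tub, Stab2 and Tlr12 had not). Between dSCs and iSCs, 25 of the 144 were higher at an adjusted p under 0.05, against 2.63% of all 13751 genes tested, and 4 were lower, against 2.69%. The median log2 fold change of the 144 was 0.93, against -0.02 over all genes, and 106 of them were above 0, against 48.9% of all genes. Genes with a clear rise included Tnc, Mdk, Gria1, Kng1, Wif1, Rgs8, Col18a1, Gcg and Pdrg1, whose calls held without any 1 of the 8 libraries and with the pool number as a block. Trf, Baalc and Fgd3 held without any 1 library but not with the block. The other 13 rises and the 4 falls lost the call without at least 1 library, with adjusted p up to 0.158.

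Between bSCs and dSCs the direction turned. Of the 144, 31 were lower in bSCs, against 3.11% of all genes, and 4 were higher, against 2.31%. The median log2 fold change was -1.12, against -0.07 over all genes. The choice asked for a high level in distal libraries, and its count filter used distal libraries only. An excess of members lower in bSCs is thus partly built into the choice, and nothing is read from its difference from all genes. Against iSCs, bSCs were higher in 17 members and lower in 21, against 7.24% and 7.46% of all genes, with a median of -0.37 against -0.16. These medians of all genes are under TMM scaling, and changes are read relative to them. Of the 31 lower in bSCs than in dSCs, 14 held without any 1 library and 12 of these with the block as well: Kng1, Fetub, Apod, A2m, Trf, Trpm6, Lum, Gcg, Nipal1, Tenm2, Pdrg1 and Thbs4. Of the 4 higher, Tnc and Copg2 held without any 1 library, and Tnc with the block. Against iSCs, 14 of the 17 higher and 10 of the 21 lower members held without any 1 library. These comparisons share the iSC, dSC and bSC libraries, so their values are set side by side and not compared with each other.

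The calls fell into a few patterns. Tnc was higher in dSCs than in iSCs and higher again in bSCs. A group of 11 was higher than in iSCs in both dSCs and bSCs with no call between these: Gria1, Wif1, Slitrk6, Serpine2, Rgs8, Olig1, Mfap2, Mdk, Nkd2, Baalc and Col18a1. Another 10 members rose in dSCs over iSCs with bSCs below dSCs, namely Kng1, Trf, Lrp4, Pdrg1, Thbs4, Kcnv1, Fgd3, Fetub, Apod and Gcg, of which the last 3 were also below iSCs. Lower in bSCs than in both other groups, with no call between dSCs and iSCs, were 10 more: A2m, Cfi, Trpm6, Lum, Nipal1, Efemp1, Gpc3, Tenm2, Col28a1 and Atp8a1. In 84 of the 144 no comparison passed. The shares of all genes with these joint patterns were not counted. The pattern counts are therefore a description of the members only, and nothing is read from their size.

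**Figure D4:**
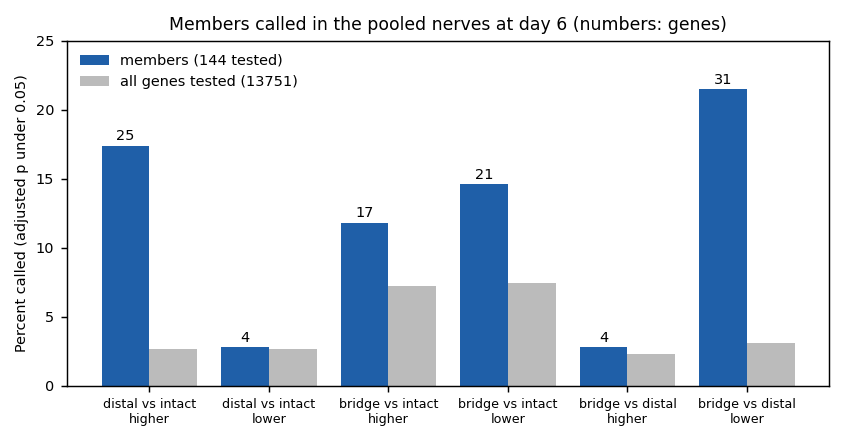
Percent of the 144 tested members and of all 13751 genes tested that passed an adjusted p under 0.05 in each of the 3 pooled comparisons, by direction; bars start at 0. The members' share exceeds that of all genes most for rises in dSCs over iSCs (17.4% against 2.63%) and for falls in bSCs below dSCs (21.5% against 3.11%). The choice asked for a high distal level and used no bridge library, so the excess of falls in bSCs is partly built into it.

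In the Wnt group of 5 members, 3 were higher in dSCs than in iSCs (2.63% of all genes), 2 were higher in bSCs than in iSCs (7.24%), and 1 had bSCs below dSCs (3.11%). Wif1 (chr10:120471016-120537706) was at 0, 0, 0.303 and 0.573 CPM in pooled iSCs and at 487, 600, 520 and 637 CPM in pooled dSCs, with no overlap. The fitted log2 fold change was 11.47 ± 1.95 (SE, n = 4 and 4, adjusted p = 0.0044). In pooled bSCs it was at 68.4, 0, 0.35 and 6.76 CPM, so that 1 library carried most of the signal. The call above iSCs (log2 fold change 6.45 ± 1.69, adjusted p = 0.0215) was lost without bridge pool 1 (0.0737), without intact pools 1, 2 or 4 (0.0578 to 0.0637) and with the block (0.159), and the bSC to dSC difference of -5.02 did not pass (0.0548).

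Nkd2, an intracellular inhibitor of Wnt signalling, was at 16.5, 11.5, 11.1 and 50.3 CPM in iSCs, 198, 55.6, 107 and 86.1 CPM in dSCs and 156, 211, 112 and 441 CPM in bSCs, and both injured groups lay wholly above iSCs. Its log2 fold change over iSCs was 3.42 ± 0.62 in bSCs (adjusted p = 0.00287) and 2.41 ± 0.60 in dSCs (0.0349), the latter lost without intact pools 1, 2 or 4 or distal pools 1, 3 or 5 (0.0575 to 0.104) and with the block (0.0646). Lrp4, a protein of the LDL receptor family placed in the Wnt group by hand, was at 284, 272, 111 and 327 CPM in dSCs, above 47.7 to 80.8 CPM in iSCs. Its bSC libraries, at 17.3 to 114 CPM, touched both ranges. It rose by 2.06 ± 0.48 in dSCs (adjusted p = 0.0266, but 0.0615 to 0.0886 without intact pools 1, 2 or 4 or distal pools 1, 2 or 5) and was lower by -2.21 ± 0.49 in bSCs than in dSCs (0.0212, but 0.0541 to 0.0616 without bridge pools 2 or 5 or distal pools 1 or 5). Frzb, the other secreted antagonist, followed another course: 71.6, 137, 101 and 81.3 CPM in iSCs, 56.0, 26.5, 4.86 and 55.5 CPM in dSCs and 15.4, 0, 0.262 and 0 CPM in bSCs, with no call in any of the 3 comparisons (adjusted p = 0.0555 for bSCs against iSCs). Ror2 had no call either.

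Of the 6 protease inhibitors, 3 rose in dSCs (2.63% of all genes) and 3 had bSCs below dSCs (3.11%). Kng1 was at 0, 0, 0 and 0.0818 CPM in iSCs, 0, 0, 0.0874 and 0 CPM in bSCs, and 49.1, 57.4, 43.0 and 19.2 CPM in dSCs. It had 2449 counts in dSCs against 1 in iSCs and 1 in bSCs, a ratio of 2400 over iSCs (431 to 95000, adjusted p = 0.000716) and of 2920 over bSCs (524 to 116000, 0.00196). Fetub showed the same contrast, at 35.6, 37.7, 27.9 and 63.1 CPM in dSCs, at 0 to 3.03 CPM in iSCs and at 0 to 0.0874 CPM in bSCs. Its difference between bSCs and dSCs (1 count against 2361, a ratio of 2820 with an interval of 505 to 111000, adjusted p = 0.00695) held in every leave-one-out fit, whereas its rise over iSCs (5.68 ± 1.4, 0.0331) was lost without intact pools 1 or 2 or any 1 distal pool (0.0555 to 0.11) and its bSC value below iSCs (0.0431) without intact pool 4 or any 1 bridge pool (0.0538 to 0.269) and with the block (0.398). Kng2, at 78.7, 153, 176 and 155 CPM in dSCs against 1.53 to 24.6 CPM in iSCs and 0 to 26.9 CPM in bSCs, did not overlap either group and did not pass (adjusted p = 0.0832 and 0.0705).

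A2m, the broad protease trap alpha-2-macroglobulin (chr6:121586191-121629255), differed in the bridge rather than in the distal stump. It was at 16.2, 19.8, 69.2 and 46.1 CPM in iSCs, 62.2, 86.0, 31.6 and 73.4 CPM in dSCs and at 0 in each of the 4 bSC libraries. Against a floor of 3 counts over the 4 bSC libraries it was at least 864-fold lower than in iSCs (adjusted p = 0.000117) and at least 1450-fold lower than in dSCs (0.00111), while dSCs and iSCs overlapped (0.566). Serpine2 was at 393, 356, 276 and 215 CPM in iSCs, 487, 653, 608 and 505 CPM in dSCs and 990, 655, 487 and 605 CPM in bSCs, and both injured groups were above iSCs. Its rise was 1.17 ± 0.26 in bSCs (adjusted p = 0.0086) and 0.98 ± 0.26 in dSCs (0.0436), and the latter was lost without any 1 of the 8 libraries (0.0639 to 0.15) and with the block (0.128).

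Of the 8 carriers and innate immune proteins, 2 rose in dSCs (2.63% of all genes), 4 had no call there and the rest were not tested. In bSCs, 4 were below dSCs (3.11%) and 2 had no call. Apod was at 3870, 2047, 7164 and 12427 CPM in pooled iSCs, at 39409, 46981, 33748 and 61545 CPM in dSCs and at 1602, 452, 224 and 257 CPM in bSCs. The 3 groups did not overlap, with bSCs lowest. The bSC to dSC difference was -6.28 ± 0.80 (adjusted p = 0.00206). Against iSCs, Apod was higher by 2.93 ± 0.69 in dSCs (0.0263, but 0.0518 to 0.0928 without intact pools 1, 2 or 4 or distal pools 1, 2 or 5, and 0.0746 with the block) and lower by -3.35 ± 0.70 in bSCs (0.00624, and 0.057 with the block). Trf, at 265, 222, 456 and 985 CPM in iSCs, was at 2174, 3229, 2204 and 2587 CPM in dSCs and at 332, 522, 181 and 147 CPM in bSCs, where it overlapped iSCs. It rose by 2.5 ± 0.51 in dSCs (adjusted p = 0.0134, and 0.0778 with the block) and was lower by -3.21 ± 0.52 in bSCs than in dSCs (0.0058). Cfi, complement factor I, was at 0 in each bSC library, at least 107-fold below iSCs (adjusted p = 0.00988, 0.115 with the block) and at least 152-fold below dSCs (0.0207, 0.0501 without distal pool 1 and 0.11 with the block).

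Among 15 extracellular matrix members, 4 rose in dSCs (2.63% of all genes) and 4 in bSCs (7.24%) over iSCs, 5 were lower in bSCs than in iSCs (7.46%), and 5 were lower (3.11%) and 2 higher (2.31%) in bSCs than in dSCs. Tnc, the glycoprotein tenascin C (chr4:63620819-63681760), was at 1.59, 3.26, 5.30 and 5.89 CPM in iSCs, 623, 289, 617 and 554 CPM in dSCs and 2080, 2587, 1366 and 4337 CPM in bSCs. The groups were fully separated, and the log2 fold changes over iSCs were 7.10 ± 0.57 in dSCs (adjusted p = 0.000118) and 9.37 ± 0.62 in bSCs (1.16e-05). bSCs exceeded dSCs by 2.27 ± 0.45 (0.0138). Col18a1, a basement membrane collagen, was at 95.9, 129, 216 and 228 CPM in iSCs, 782, 436, 1161 and 737 CPM in dSCs and 1155, 825, 1326 and 1555 CPM in bSCs. It rose by 2.3 ± 0.37 in dSCs (adjusted p = 0.00306) and 2.89 ± 0.38 in bSCs (0.000473), with no call between the injured groups.

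Other matrix genes went down in the bridge. Lum, a small proteoglycan of collagen fibrils that is also on the fibroblast marker list, was at 5989, 7608, 5573 and 4979 CPM in dSCs and 1618, 512, 389 and 244 CPM in bSCs (log2 fold change -3.25 ± 0.58, adjusted p = 0.00925), with iSCs at 1138 to 4524 CPM, below each dSC library. Efemp1, a fibulin of elastic matrix, was at 437, 743, 723 and 775 CPM in dSCs and 118, 51.1, 64.0 and 3.80 CPM in bSCs (-3.62 ± 0.73, 0.0151, and 0.0786 with the block). Thbs4, a thrombospondin, was at 1634, 1663, 1132 and 1457 CPM in dSCs and 504, 209, 73.5 and 177 CPM in bSCs (-2.72 ± 0.56, 0.0168). In these 3 genes the highest bSC library stayed below the lowest dSC library. Thbs4 was also above iSCs in dSCs (2.23 on the log2 scale, adjusted p = 0.0329), a call lost without intact pools 1, 2 or 4 or distal pools 1, 2 or 5 (0.0707 to 0.107) and with the block (0.0562). Edil3, a matrix protein that binds integrins, went the other way, at 155, 131, 203 and 323 CPM in bSCs against 84.4, 41.6, 70.8 and 62.3 CPM in dSCs and 25.1 to 61.2 CPM in iSCs. It was higher in bSCs than in iSCs by 2.41 ± 0.38 (adjusted p = 0.00124) and than in dSCs by 1.60 ± 0.37 (0.0268), the latter lost without bridge pool 5 or any 1 distal pool (0.0501 to 0.0773) and with the block (0.0966). Of the 7 secreted proteases and their relatives, 1 passed in any of the 3 comparisons: Cpxm1, of the carboxypeptidase family, was at 457, 384, 407 and 424 CPM in dSCs and 178, 45.2, 39.4 and 18.9 CPM in bSCs (-2.69 ± 0.62, adjusted p = 0.0257, but 0.0505 to 0.0711 without bridge pools 2, 3 or 5 or distal pools 1, 2 or 5, and 0.0684 with the block).

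**Figure D5:**
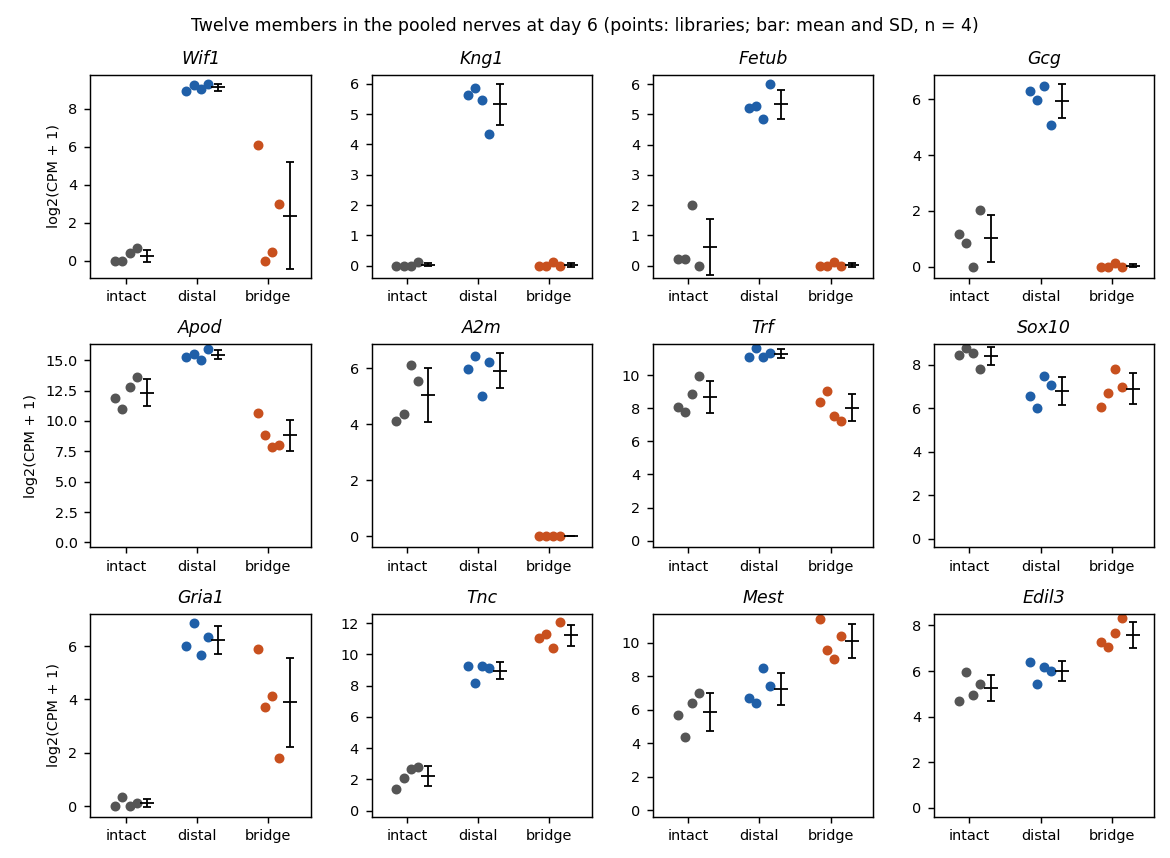
Level of 12 members in the pooled libraries of day 6, as log2(CPM + 1), in iSCs, dSCs and bSCs; points are libraries and bars show the mean with its SD (n = 4 per group). Wif1, Kng1, Fetub, Gcg, Apod and Trf are highest in dSCs, A2m is at 0 in bSCs, Tnc, Mest and Edil3 are highest in bSCs, Gria1 lies higher in both injured groups, and Sox10 is highest in iSCs.

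Of the 7 ligands and hormones, 3 rose in dSCs (2.63% of all genes) and 1 in bSCs (7.24%) over iSCs. Mdk, the heparin-binding growth factor midkine, was at 7.96, 7, 8.33 and 9 CPM in iSCs, 81.1, 95.8, 113 and 69.7 CPM in dSCs and 192, 70.8, 115 and 53.6 CPM in bSCs. Its 4 iSC libraries lay close together, and it rose by 3.58 ± 0.38 in dSCs (adjusted p = 0.000438) and 3.74 ± 0.38 in bSCs (9.53e-05). Gcg, which encodes the precursor of glucagon, was at 77.0, 61.8, 87.2 and 33.2 CPM in dSCs, at 0 to 3.11 CPM in iSCs and at 0 to 0.0874 CPM in bSCs. It was 5.75 ± 1.1 above iSCs in dSCs (adjusted p = 0.00926), and bSCs held 1 count against 3695 in dSCs, a ratio of 4410 (791 to 174000, 0.00208). Igf1, insulin-like growth factor, was at 888, 964, 638 and 892 CPM in dSCs against 46.2 to 338 CPM in iSCs, a rise of 2.39 ± 0.57 (adjusted p = 0.028) that was lost without intact pools 1, 2 or 4 or distal pools 1, 2 or 5 (0.0588 to 0.0955) and with the block (0.101). Igf2, its paralog, had no call (0.0851 in dSCs against iSCs), and Bdnf, a neurotrophin, was at 0 in each iSC library and at 6.46, 0, 1.25 and 7.03 CPM in dSCs (0.0901).

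Of 15 channels and transporters, 2 were higher (2.63% of all genes) and 1 lower (2.69%) in dSCs than in iSCs. Another 9 had no call, and the rest were not tested. In bSCs, 1 was higher (7.24%) and 4 lower (7.46%) than in iSCs, and 5 were lower than in dSCs (3.11%). Of 13 adhesion and guidance proteins, 1 was higher in dSCs than in iSCs. In bSCs, 1 was higher and 2 lower than in iSCs, and 1 was lower than in dSCs. Some of the genes named here, which include signalling proteins, were at or near 0 in iSCs. Gria1 (chr11:56824889-57143746) was at 0, 0.263, 0 and 0.0818 CPM in iSCs, 62.7, 116, 49.6 and 80.6 CPM in dSCs and 58.5, 12, 16.7 and 2.52 CPM in bSCs, above iSCs in both (9.62 ± 1.19, adjusted p = 0.000716, and 7.70 ± 1.12, 0.000741). Slitrk6 (chr14:111147800-111154371) was at 0, 4.52, 1.14 and 1.55 CPM in iSCs, 33.8, 13.8, 36.6 and 29.9 CPM in dSCs and 64.9, 44.1, 253 and 164 CPM in bSCs. It rose by 6.19 ± 1.00 in bSCs (adjusted p = 0.00142) and by 4.03 ± 0.91 in dSCs (0.0229, but 0.0758 without intact pool 4, 0.0547 without distal pool 5 and 0.178 with the block). Rgs8, a regulator of G-protein signalling, was at 0 in each iSC library and at 18.3, 9.77, 28.9 and 27.3 CPM in dSCs and 2.38, 2.68, 24.1 and 9.77 CPM in bSCs, at least 396-fold (adjusted p = 0.00284) and at least 183-fold (0.00176) higher. Tenm2, a teneurin adhesion protein, was instead low in bSCs, at 0.285, 0, 1.14 and 0 CPM against 113, 92.4, 43.3 and 52.1 CPM in dSCs (-7.91 ± 1.23, adjusted p = 0.00482) and 42.1, 16, 6.89 and 57.5 CPM in iSCs (-6.50 ± 1.16, 0.00259). Nipal1, a magnesium transporter, was at 12, 21.7, 3.59 and 4.16 CPM in bSCs against 203, 275, 138 and 146 CPM in dSCs (-4.31 ± 0.63, 0.00405), and Trpm6, a magnesium-permeable channel, was at 0 in each bSC library, at least 719-fold below dSCs (0.0117).

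Of 7 receptors, 2 had bSCs below dSCs (3.11% of all genes). Ramp1, a partner of the calcitonin receptor family, was at 22.5, 13, 20.5 and 30.5 CPM in iSCs, 112, 48, 62 and 64.3 CPM in dSCs and 5.89, 19.1, 23.7 and 7.96 CPM in bSCs, so bSCs lay within or below the iSC range. The bSC to dSC difference was -2.41 ± 0.51 (adjusted p = 0.0182, but 0.0585 without distal pool 1 and 0.0862 with the block), and the rise over iSCs fell short of the threshold (0.0502). Plxdc1, a membrane protein with a plexin domain, was at 144, 96.1, 142 and 133 CPM in dSCs and 19.1, 14.2, 0.175 and 4.11 CPM in bSCs (-3.87 ± 0.94, adjusted p = 0.0315, but 0.0523 to 0.0814 without bridge pools 2 or 5 or any 1 distal pool and 0.0993 with the block). Egfr, the receptor of epidermal growth factor, was at 105, 75.5, 70.3 and 108 CPM in dSCs, above 12.1 to 55 CPM in iSCs and 0.298 to 28.8 CPM in bSCs, yet did not pass (0.495 and 0.11).

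Among intracellular members, Pdrg1, a small chaperone-related protein, differed in both distal comparisons. It was at 185, 168, 202 and 101 CPM in iSCs, 366, 308, 450 and 322 CPM in dSCs and 136, 100, 99.3 and 94.6 CPM in bSCs, with dSCs wholly above both other groups. It rose by 1.24 ± 0.24 in dSCs (adjusted p = 0.01) and was -1.82 ± 0.24 in bSCs relative to dSCs (0.00234). Cdkn2b, an inhibitor of the cell cycle, was at 15.7, 12.3, 21.7 and 41.3 CPM in iSCs and 74.8, 91.8, 61.6 and 66.8 CPM in dSCs, a rise of 1.8 ± 0.4 (adjusted p = 0.0215) lost without intact pools 1, 2 or 4 or distal pools 2 or 5 (0.0519 to 0.0704) and with the block (0.122).

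Some high scorers did not stand out in the pooled libraries. Clca2, a chloride channel regulator, was at 22.9, 50.5, 67.1 and 59.5 CPM in dSCs and at 0.245 to 5.37 CPM in iSCs with no overlap, yet did not pass (adjusted p = 0.113). Matn2, a matrilin of the extracellular matrix, was at 1104, 1541, 1004 and 886 CPM in pooled iSCs, 893, 583, 744 and 600 CPM in dSCs and 618, 530, 711 and 686 CPM in bSCs. In the single-nerve libraries it had been at 113 to 983 CPM in iSCs, 770 to 1517 CPM on day 8 and 929 to 1156 CPM on day 10. Its late rise was thus not present on day 6 of the pooled series, where bSCs were lower than iSCs by -0.80 (adjusted p = 0.0367), a call lost without any 1 library except intact pool 5 (0.0508 to 0.12) and with the block (0.131). Fam84a, Frem1, Adamts17 and the unnamed transcript 9430069I07Rik had no call. Crym, a thyroid hormone binding protein, was highest in bSCs of the pooled series, at 107, 133, 115 and 249 CPM. It was at 0.151 to 5.16 CPM in iSCs and 0 to 25.3 CPM in dSCs. In bSCs it was 6.51 ± 1.37 above iSCs (adjusted p = 0.00659), with no call against dSCs (0.074). In the single nerves of day 6 its median was 46.4 CPM in bSCs and 36.3 CPM in dSCs.

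Of 8 transcription factors, 1 rose (2.63% of all genes) and 1 fell (2.69%) in dSCs. Sox10, the factor that maintains Schwann cell identity (chr15:78985343-78994920), ran against the choice: in the single-nerve libraries it was at 18, 24.1, 36.6, 122 and 22.5 CPM in iSCs, 142, 104 and 135 CPM on day 8 and 97.5, 94.9 and 60.1 CPM on day 10, but in the pooled libraries it was at 354, 437, 376 and 223 CPM in iSCs, 93.6, 63.1, 181 and 136 CPM in dSCs and 66.8, 104, 223 and 124 CPM in bSCs. The pooled iSC level was thus above that of each single intact nerve, as was the sum of the 8 Schwann cell markers in the pooled series. In the pooled series it fell by 1.46 ± 0.39 in dSCs (adjusted p = 0.0471, 0.098 to 0.133 without intact pools 1, 2 or 4 or distal pools 1, 2 or 5, and 0.0528 with the block) and by 1.39 in bSCs (0.0302, but 0.0562 to 0.0748 without intact pools 1, 2 or 4 or bridge pools 1, 2 or 5). Olig1, a factor best known from oligodendrocytes, was at 0 to 0.0757 CPM in iSCs and 8.17, 8.41, 33.2 and 21.5 CPM in dSCs, 1 count against 1001 and a ratio of 983 (176 to 38800, adjusted p = 0.0172), a rise lost without intact pools 1, 2 or 4 (0.0555 to 0.0658) and with the block (0.145). The other 3 falls in dSCs were Shpk, a sugar kinase, Shroom2, an actin-binding protein, and Kcna6, a potassium channel, with log2 fold changes of -2.42, -2.29 and -2.18 and adjusted p of 0.045, 0.0353 and 0.0359. All 3 were lost without intact pools 1, 2 or 4 or distal pool 5, Shpk and Shroom2 also without distal pool 3 and Shpk and Kcna6 also without distal pools 1 or 2 (0.0538 to 0.158), and with the block (0.129, 0.135 and 0.121).

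The imprinted neighbours Mest and Copg2 were higher in the bridge. Mest, a gene expressed from the paternal copy that encodes a hydrolase, was at 50.1, 20.1, 84.6 and 130 CPM in iSCs, 103, 84.3, 369 and 167 CPM in dSCs and 2717, 761, 530 and 1352 CPM in bSCs. Copg2, a coat protein of transport vesicles, was at 51.9, 65.7, 42.6 and 82.6 CPM in iSCs, 90.3, 66.1, 168 and 115 CPM in dSCs and 1125, 395, 261 and 602 CPM in bSCs. Both had bSCs wholly above the other groups, and in both bridge pool 1 was highest. The log2 fold change of bSCs over iSCs was 4.24 ± 0.70 for Mest (adjusted p = 0.00161) and 3.31 ± 0.44 for Copg2 (0.000504). Over dSCs it was 2.82 ± 0.66 for Mest (0.0268, but 0.052 to 0.0811 without bridge pools 1 or 5 or distal pools 1, 2 or 5, and 0.0702 with the block) and 2.37 ± 0.43 for Copg2 (0.00936, and 0.052 with the block). Klf14, at 19.3, 17.9, 56.6 and 9.20 CPM in bSCs and 0 to 6.32 CPM in dSCs, did not pass (0.421).

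Genes of related lists that are not members were counted next. Against iSCs, where 2.63% of all genes were higher and 2.69% lower in dSCs, 5 of 26 matricellular and proteoglycan genes were higher and 2 lower, 2 of 19 growth factors were higher and 1 lower, 2 of 14 collagens were higher and 1 lower, and 2 of 17 proteases and inhibitors were higher and 1 lower. Of 13 genes of the Schwann cell repair programme 2 were higher and 4 lower, of 22 guidance and adhesion genes 2 were higher and 3 lower, and 4 of 14 channels and transporters were lower. Higher in dSCs were also 12 of 22 lysosome and lipid handling genes and 4 of 19 complement and innate immune receptors, with 0 lower. Of 17 cell division genes 11 were higher, and of 16 myelin genes 14 were lower. Of 16 chemokines and cytokines 1 was higher. Between bSCs and dSCs, where 2.31% of all genes were higher and 3.11% lower in bSCs, 3 of the 26 matricellular genes were higher and 5 lower. Lower in bSCs were also 7 of 22 lysosome and lipid genes, 2 of 19 complement and innate immune genes and 3 of 17 proteases and inhibitors. In these lists 0 were higher. Of 13 repair programme genes 3 were higher and 1 lower, and of 17 cell division genes 3 were higher and 0 lower. Lower values in bSCs than in dSCs were thus not limited to the members.

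In the single-nerve bridge libraries, calls of a late rise depended on the tool and on the libraries kept. Over days 8 and 10 against day 4, 0 of 142 tested members passed in either direction by edgeR on all libraries, against 0.00% of 13635 genes upward and 0.00% downward. At an unadjusted p under 0.05, 12 were higher, against 2.54% of genes, and 2 lower, against 3.17%. DESeq2 called 5 higher, against 0.916%, and 2 lower, against 0.735%. These fits include bridge day 4 replicate 1, which correlated at 0.997 with distal day 4 replicate 1, a library that set the early medians. They also include bridge day 8 replicate 2, with its distal-like index of 0.49. Counts with these libraries may partly repeat the values that chose the members, so nothing is read from their difference from all genes. Without bridge day 8 replicate 2, edgeR called 3 higher, against 0.0354%, and 1 lower, against 0.00708%. Without both doubted bridge libraries it called 0 and 0, against 0.00% and 0.00%, with 9 higher, against 2.02%, and 18 lower, against 3.23%, at an unadjusted p under 0.05. Slitrk6 came closest in the fit of all libraries: it was at 2.35, 1.57 and 0.318 CPM on day 4 and at 30.5 to 81.5 CPM in the 6 libraries of days 8 and 10, a difference of 5.19 ± 0.78 (adjusted p = 0.0867). The groups did not overlap, and the call turned on the libraries kept: the adjusted p by edgeR was 0.0458 without bridge day 8 replicate 2, 0.29 without bridge day 4 replicate 1 and 0.31 without both, and by DESeq2 on all libraries it was 9.2e-13.

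The bSC medians of both late days exceeded all early distal and intact medians in 54 members, against 8.37% of genes, and were below the lower of the dSC late medians in 95, against 26.1%. Without distal day 4 replicate 1, distal day 10 replicate 0 and bridge day 8 replicate 2 these were 42 and 94 members, against 8.98% and 27.9% of genes. Both counts set bSCs against medians that chose the members, so they are partly fixed by the choice and nothing is read from the difference from all genes.

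On day 6, the single nerves allowed the bridge and distal stump of the same animals to be compared. Of 140 members tested, 0 were higher in bSCs by edgeR, against 0.00787% of 12704 genes, and 2 were lower, against 0.0472%. At an unadjusted p under 0.05, 7 were higher, against 4.84% of genes, and 26 lower, against 3.90%. DESeq2 called 4 higher, against 1.22%, and 16 lower, against 1.06%. The 2 lower by edgeR were Apod, at 45.8, 270 and 138 CPM in bSCs and 17897, 20547 and 14216 CPM in dSCs (log2 fold change -6.75 ± 0.73, adjusted p = 0.0293), and A2m, at 0 in each of the 3 bSC libraries and at 93.7, 97.0 and 50.6 CPM in dSCs (at least 1040-fold lower, 0.0293). Both calls were lost without any 1 of the 6 libraries (0.0744 to 0.223 for Apod and 0.0744 to 0.288 for A2m) and with the animal as a block (0.0603 and 0.149), although the 2 groups were far apart in every library. The 3 bSC libraries lay wholly below the 3 dSC libraries in 39 members, against 11.2% of genes, among them Wif1, Clca2, Fetub, Kng2, Cpxm1, Trf and Thbs4. They lay wholly above in 10, against 7.59%, namely Mest, Ptprv, Tnc, Ror2, Copg2, Igsf3, Edil3, Usp22, Ccdc8 and Hhat. The members were chosen by a high level in distal libraries. An excess of lower bSC values on day 6 is thus partly built into the choice, and nothing is read from it.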

How the data were processed

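Per the submitters' processing notes and the study's methods, the authors aligned reads to mouse mm9 with TopHat2 2.0.11 and deposited raw counts per gene from HTSeq. Non-gene rows and spike-ins were left out. From the deposited counts, CPM gave levels and the choice of members. Tests used edgeR 4.0.16 (R 4.3.3; quasi-likelihood, TMM, filterByExpr, Benjamini-Hochberg over all genes tested), fitted on the 12 pooled, the 12 bridge or the 6 day 6 libraries; DESeq2 1.42.0 was an alternative. Fold changes are log2. The SE beside them is the size of the fold change divided by the square root of the quasi-likelihood F value. It was thus derived from the test and is not a separately fitted standard error. Replicates are different animals or pools. Samples with the same pool number, or of 1 animal on day 6, share mice by the labels. The correlation of deviations from group means averaged 0.111 for bSCs and dSCs of the same animal in the single nerves of day 6. For pools of the same number it averaged 0.0071 (dSCs and iSCs), -0.0804 (bSCs and iSCs) and 0.0466 (bSCs and dSCs). The test was tried on simulated data. The members, lists and roles were chosen with earlier results of these data known. Genes were named as the 20 highest scores, the 5 largest non-overlapping rises and falls per test, those at the edge of the set, list members, and role members chosen after their values were seen. Rat libraries were not analysed here.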

Additional observations from a re-analysis of the deposited data

Results flagged for a closer look

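Among 132 groups of 4 or 5 libraries of 35 members, 17 had 1 library far from the others (a gap to its neighbour that takes up most of the group's range, by Dixon's criterion). The criterion is set to flag about 1 group in 20 of normally distributed values. Many of these groups were at or near 0, and a group with all libraries but 1 at 0 is flagged whatever that 1 value is. The number flagged is therefore a description, with no rate from chance to set it against. In pooled iSCs, the library apart was pool 5 for Kng1 (0.0818 CPM, the others 0), pool 4 for Fetub (3.03 CPM) and pool 4 for Stk32b (5.23 CPM). In pooled dSCs, pool 1 was low for Baalc (5.35 CPM, against 17.8 to 21.3) and pool 2 was low for Tnc (289 CPM, against 554 to 623). In pooled bSCs, pool 3 was apart for Kng1, Fetub and Gcg (0.0874 CPM each), pool 1 for Frzb (15.4 CPM) and Fam84a (5.32 CPM), and pool 2 for Fgd3 (0.372 CPM). In single-nerve iSCs, replicate 5 was apart for Gria1 (0.271 CPM), Fam84a (2.22 CPM), Baalc (4.99 CPM), Crym (2.33 CPM) and Stk32b (1.41 CPM), and replicate 3 for Fetub (1.98 CPM).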

How the results depend on the processing

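Across 1 changed setting at a time, 303 values of single members stayed on their side of the threshold and 69 no longer passed; no direction turned. With the pool number or animal as a replicate block, 12 of 29 calls of dSCs against iSCs, 21 of 38 of bSCs against iSCs, 14 of 35 of bSCs against dSCs and 0 of 2 on day 6 were kept, so dSCs against iSCs gave 12 higher and 0 lower, bSCs against iSCs 10 lower, bSCs against dSCs 1 higher and 13 lower, and day 6 gave 0 lower. DESeq2 gave 7 lower in dSCs than in iSCs, 34 lower in bSCs than in iSCs, 7 higher in bSCs than in dSCs, 5 higher and 2 lower in late than in day 4 bridge, and 4 higher and 16 lower on day 6. Fitted on the compared groups alone, bSCs against iSCs gave 13 lower; with all 35 libraries day 6 gave 0 lower; with the study's filter day 6 gave 1 higher; without a filter the late bridge gave 1 higher. Leaving out 1 library at a time gave 13 to 29 higher and 0 to 6 lower for dSCs against iSCs (13 without intact pools 1 or 2 or distal pool 5), 2 to 4 higher and 17 to 35 lower for bSCs against dSCs, 0 to 3 higher and 0 to 1 lower for the late bridge, and 0 to 1 lower on day 6. Except where given above, the shares of all genes at these other settings are not set beside these counts. The counts therefore show only how the members' own calls moved, and not whether they exceed those of all genes. The choice itself kept 82 of 150 members with means in place of medians and 98 to 140 without 1 library (98 without day 10 replicate 3). Chosen after seeing the data: without day 10 replicate 0, 111 were kept and 2 of them were lower in dSCs than in iSCs, and without it and day 4 replicate 1, 95 were kept. The counts given above without the doubted libraries, and the lists without members, were also chosen after seeing the data. The causes were not tested. Genes at a few counts per library lie near the floor of 3 counts, where a zero does not show absence.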
